A study of Mus musculus with 12 samples.

Results

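The comparison described here is that of visceral white adipose tissue from transgenic mice that overexpress TGF-b1 in the heart with the same tissue from wild-type mice, both fed the control diet. It rests on 6 of the 12 RNA-seq libraries of the study, chosen by genotype and diet label, with 3 transgenic and 3 wild-type libraries, and on all 16550 genes with enough counts to test. Transgenic mice were of the FVB/N strain and carried 2 transgenes, alphaMHC tTA and alphaMHC TGFb. The first is a tetracycline transactivator and the second encodes TGF-b1, both driven by the promoter of the alpha myosin heavy chain, which is active in cardiac muscle. Wild-type mice were FVB/N littermates with alphaMHC tTA alone, so both genotypes made the transactivator in the heart. Control chow held 17% of its energy as fat (3.1 kcal/g). The other 6 libraries were used below for comparison, and the tests took their spread between libraries from all 12. Those other 6 came from transgenic and wild-type mice on a high-fat diet with 60% of energy as fat (5.21 kcal/g), begun at 8 to 10 weeks of age. That diet was given for 2 or 6 weeks, without a label that assigns a duration to a library. The age at sampling, sex and doxycycline status of the mice are not stated. Nor is it stated that the libraries come from different mice, and p-values here reflect only how much libraries varied, part of which may be technical. The transgene acts in the heart, which was not sampled here, so the adipose data hold no direct check of the genotype labels.

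TGF-b1 is a secreted cytokine that is stored in a latent complex, binds a pair of serine/threonine kinase receptors and signals through Smad transcription factors. In adipose tissue it is known to restrain the differentiation of preadipocytes and to drive matrix production by fibroblasts. White adipocytes store triglyceride, release fatty acids when catecholamines or natriuretic peptides raise cyclic nucleotides, and secrete hormones such as leptin, whose amount follows the size of the fat store. Between the adipocytes lie capillaries, progenitor cells and macrophages, and the mesothelium covers visceral fat.

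The 6 libraries held 20.1 to 21.3 M gene counts, with 22603 to 23720 genes detected in each. Levels are given in CPM, the count of a gene relative to the scaled library total, and means as mean ± SD over the 3 libraries of a group. Adipocyte genes were among the most abundant in all 6: Adipoq, which encodes adiponectin, measured 5453, 4089.9 and 4133 CPM in the transgenic libraries, against 4715, 5278 and 5466 CPM in the wild-type libraries. Plin1, the coat protein of lipid droplets, averaged 1675 ± 164 CPM in transgenic and 1567 ± 67.6 CPM in wild-type tissue. Some libraries also held transcripts of other tissues. The summed level of 23 skeletal and cardiac muscle genes was 1259.6 CPM in transgenic replicate 3, against 83.2 to 131 CPM in the other 5 libraries. The summed level of 20 epithelial genes was 472 CPM in transgenic replicate 2 and 209.7 CPM in wild-type replicate 1, against 52.4 to 97.9 CPM in the other 4. The 15 Schwann cell genes summed to 578 CPM in wild-type replicate 1 and to 254 to 400.0 CPM elsewhere. Transgenic replicate 3 also stood apart in 3 genes of the major histocompatibility complex on chromosome 17, picked after their values were seen. H2-Eb1, a class II chain, was at 30.3 CPM in that library and at 1.39 to 4.29 CPM in the other 11. H2-T22 was at 60.4 CPM there, against 9.11 to 15.9 CPM in the other 11, and H2-T23 at 49.0 CPM, against 4.94 to 11.1 CPM. The strain that the labels give for this library, FVB/N as for all others, was not checked against sequence here, so its histocompatibility haplotype is not known from these data. Values without these libraries are given below for the counts of called genes and for some genes and lists. Where none is given, a count or call, also one by DESeq2, may depend on these libraries.

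Across the 16550 genes, 6 differed between transgenic and wild-type tissue by edgeR's quasi-likelihood test at a Benjamini-Hochberg adjusted p below 0.05. This is 0.0363% of the genes tested, with 2 genes higher (0.0121%) and 4 lower (0.0242%) in transgenic tissue. Npr3, Fgf13, Anxa1 and Cybb fell, and Pkn3 and Pcp4l1 rose. At an unadjusted p below 0.05 the transgenic mean was higher for 860 genes (5.20%) and lower for 956 genes (5.78%). For 2328 genes (14.1%) the 3 transgenic libraries lay wholly above (1076 genes, 6.50%) or wholly below (1252 genes, 7.56%) the 3 wild-type libraries. The median log2 change over all genes tested was -0.0048, where a positive value means higher in transgenic tissue. DESeq2 on all 12 libraries called more genes, 102 higher (0.672%) and 154 lower (1.01%) of 15177 tested (256 in all, 1.69%), and all 6 of edgeR's calls were among them. The authors' deposited table for this comparison, made with DESeq2, calls 65 genes higher and 86 lower (151 in all), again with all 6 among them. Limma-voom with quality weights called 8 genes (0.0483%), 4 in each direction (0.0242%). The edgeR fit took its spread from all 12 libraries, and with the 6 compared libraries alone edgeR called 0 genes. The edgeR count also depended on single libraries. It was 0 without transgenic replicate 1, 0 without transgenic replicate 2, 35 without transgenic replicate 3, 1 without wild-type replicate 1 (Fam83a, not one of the 6), 0 without wild-type replicate 2 and 58 without wild-type replicate 3. Without transgenic replicate 2 and wild-type replicate 1, the libraries with epithelial transcripts, only Gm42226 was called, a predicted gene that is not one of the 6. In what follows, a gene is said to have risen or fallen only where edgeR called it. For other genes the values are given with their adjusted p, and DESeq2 is named where it made a call that edgeR did not.

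**Figure D1:**
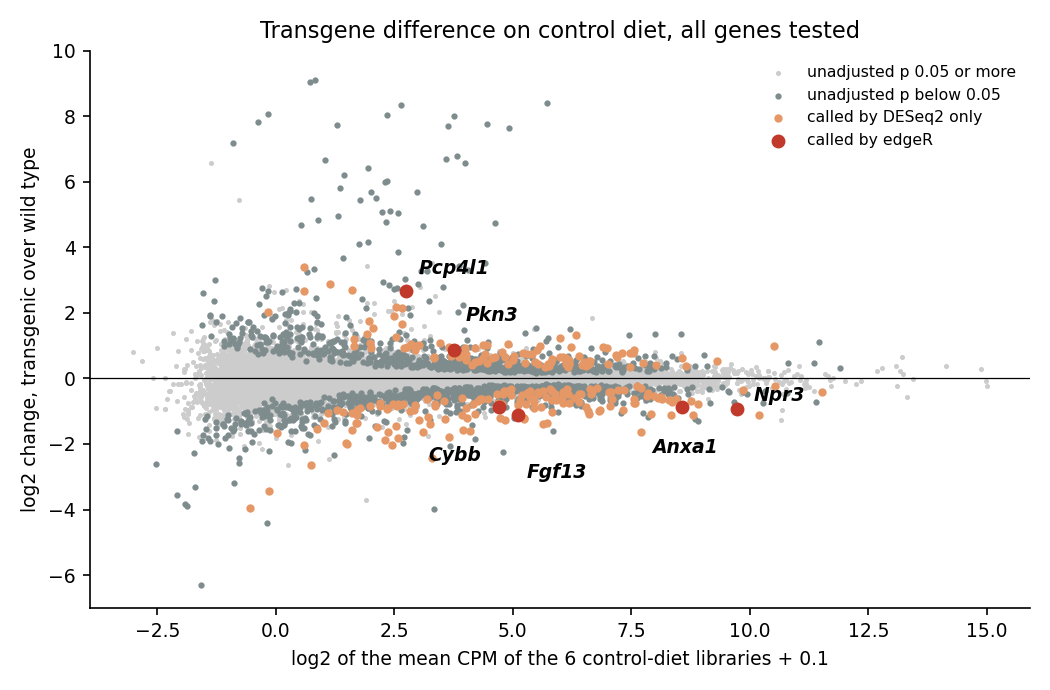
Each point is 1 of the 16550 genes tested, with the log2 of its mean CPM over the 6 control-diet libraries on the x axis and its log2 change, transgenic over wild type, on the y axis. Red points mark the 6 genes called by edgeR, 2 above and 4 below the zero line, orange points those called by DESeq2 only. Dark grey points have an unadjusted edgeR p below 0.05 and no call.

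Npr3, the clearance receptor that removes natriuretic peptides from the circulation, was the most abundant of the called genes. It measured 554, 568 and 619 CPM in the transgenic libraries, against 1069, 1140.2 and 1115 CPM in the wild-type libraries. The highest transgenic library lay well below the lowest wild-type library, and the level in transgenic tissue was about 1.91-fold lower (log2 change -0.93, SE 0.13, adjusted p = 0.0315). The gene is at chr15:11839896-11907837 (GRCm38.p6, minus strand). Its signalling counterpart, Npr1, the guanylyl cyclase receptor through which natriuretic peptides stimulate lipolysis, averaged 127 ± 11.4 CPM in transgenic and 114 ± 19.9 CPM in wild-type tissue (log2 change 0.14, adjusted p = 0.74). No difference in Npr1 was detectable at this spread.

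Fgf13 encodes an intracellular member of the fibroblast growth factor family that binds voltage-gated sodium channels and is not secreted as a classical growth factor. Its level was 21.8, 21.1 and 22.2 CPM in the transgenic libraries, against 46.3, 40.9 and 54.7 CPM in the wild-type libraries. The transgenic values lay close together and the groups did not overlap, with a 2.18-fold lower level in transgenic tissue (log2 change -1.12, SE 0.15, adjusted p = 0.0315). The gene spans chrX:59062139-59585572 on the minus strand. Fgf7, a paracrine factor made by stromal cells, averaged 5.48 ± 1.44 CPM in transgenic and 9.56 ± 1.96 CPM in wild-type tissue (log2 change -0.80, adjusted p = 0.218), and DESeq2 called it lower (adjusted p = 0.0445). Among the 19 genes of this family and its pathway that were tested, 2 had an unadjusted p below 0.05 in the lower direction and 0 in the higher, with a median log2 change of 0.14. That median was -0.087 without transgenic replicate 2 and 0.028 to 0.086 without any other 1 of the 6 libraries.

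Anxa1 encodes annexin A1, a phospholipid-binding protein that limits leukocyte recruitment and is induced by glucocorticoids. It measured 278, 246 and 273 CPM in the transgenic libraries, against 454, 489 and 523 CPM in the wild-type libraries. No library of one group reached into the range of the other (log2 change -0.88, SE 0.12, adjusted p = 0.0315), and the level in transgenic tissue was 1.84-fold lower. The gene is at chr19:20373434-20390671 on the minus strand. Cybb, the catalytic chain of the phagocyte NADPH oxidase, was at 16.9, 17.7 and 20.9 CPM in the transgenic libraries, against 34.8, 34 and 32.2 CPM in the wild-type libraries. It was 1.82-fold lower in transgenic tissue, again without overlap (log2 change -0.86, SE 0.12, adjusted p = 0.0372), and lies at chrX:9435252-9487766 on the minus strand.

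Pkn3, a serine/threonine kinase of the protein kinase N family, rose. It was at 19.1, 16.3 and 16.4 CPM in the transgenic libraries, against 10, 8.99 and 9.21 CPM in the wild-type libraries. The groups did not overlap, with a 1.84-fold higher level in transgenic tissue (log2 change 0.88, SE 0.12, adjusted p = 0.0315). It lies at chr2:30077548-30091023 on the plus strand. Pcp4l1, which encodes a small protein with an IQ calmodulin-binding motif, showed the largest fold of the 6. Its level was 10.7, 10.7 and 12.8 CPM in the transgenic libraries, against 2.76, 1.27 and 1.30 CPM in the wild-type libraries. This is a 6.40-fold higher level in transgenic tissue (log2 change 2.68, SE 0.39, adjusted p = 0.0459), from a gene of low abundance at chr1:171173264-171196268 on the minus strand. Each transgenic library lay above each wild-type library. The summed muscle level was also higher in every transgenic library, at 131, 109 and 1259.6 CPM, against 83.2, 85.7 and 99.4 CPM in the wild-type libraries. With transgenic replicate 3 and the high-fat library that also held muscle transcripts left out, 5 of the 6 genes were still called, and Npr3 had an adjusted p of 0.0539.

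**Figure D2:**
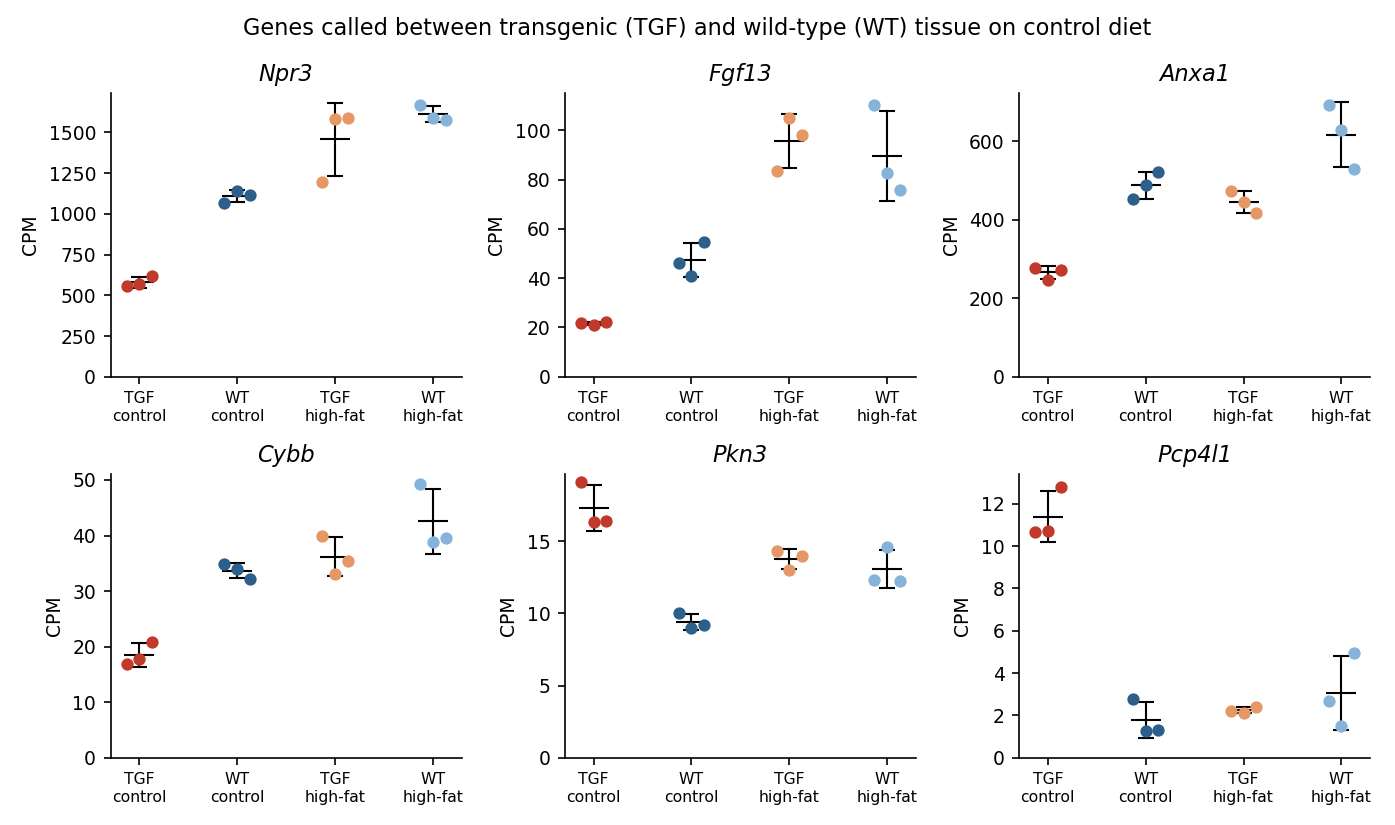
Points give the CPM of the 6 called genes in each library, with transgenic (TGF) left of wild type (WT) on each diet, and black bars give the mean and SD of the 3 libraries. On control diet the transgenic and wild-type points of every gene are separate, as for Npr3 with 554 to 619 CPM against 1069 to 1140.2 CPM, while on high-fat diet the groups overlap for 5 of the 6 genes, all but Anxa1.

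The 250 bases before the annotated transcription start are printed for 2 of the called genes, because they are the 2 single-start genes whose window holds one of the 4 motifs searched. They come from RefSeq on GRCm38.p6, on the gene's own strand, with the motif match in capitals. The motifs, searched on both strands, were the Smad box CAGAC, the nuclear receptor motif AGGTCA, the E-box CACGTG and the TATA box TATAAA. In Pcp4l1 (chr1:171196269-171196518, minus strand) the capitals mark a Smad box, read here on its other strand as GTCTG, and in Anxa1 (chr19:20390672-20390921, minus strand) a TATA box.
Pcp4l1: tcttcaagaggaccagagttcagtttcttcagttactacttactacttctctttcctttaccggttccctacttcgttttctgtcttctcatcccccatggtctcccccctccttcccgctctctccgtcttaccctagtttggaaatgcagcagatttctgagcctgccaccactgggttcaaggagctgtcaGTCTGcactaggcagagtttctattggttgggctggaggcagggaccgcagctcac
Anxa1: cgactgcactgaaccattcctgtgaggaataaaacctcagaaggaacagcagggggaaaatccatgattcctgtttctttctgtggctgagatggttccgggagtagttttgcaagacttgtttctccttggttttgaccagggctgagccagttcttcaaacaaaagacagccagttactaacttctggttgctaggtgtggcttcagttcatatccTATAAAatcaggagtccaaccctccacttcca
Such matches are frequent. Of 32851 windows of the same length over all annotated starts, 42.2% hold the Smad box, 12.4% the TATA box, 14% the nuclear receptor motif and 6.0% the E-box. Of the 9 windows of the 6 called genes, 2 held a Smad box, that of Pcp4l1 and that of 1 of the 4 annotated starts of Fgf13. The match is a match of letters and not a measured binding site.

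A further 4 genes complete the 5 with the smallest p in each direction, and none of them passed. Jph2, a junctophilin that tethers internal calcium stores to the plasma membrane of muscle cells, was at 10.4, 7.17 and 8.54 CPM in the transgenic libraries, against 2.38, 2.23 and 2.36 CPM in the wild-type libraries (log2 change 1.90, SE 0.30, adjusted p = 0.0637). Irs2, an adaptor that carries the insulin signal into the cell, was at 166, 167 and 167 CPM in the transgenic libraries, against 78.2, 71.3 and 113 CPM in the wild-type libraries (log2 change 0.93, SE 0.15, adjusted p = 0.0637). Rnf144a, a ubiquitin ligase, averaged 78.4 ± 8.19 CPM in transgenic and 49.6 ± 0.808 CPM in wild-type tissue (log2 change 0.66, adjusted p = 0.0637). Sema3c, a secreted guidance factor made by adipose progenitors, averaged 107 ± 6.96 CPM in transgenic and 164 ± 15 CPM in wild-type tissue (log2 change -0.62, adjusted p = 0.0919). In each of the 4 the libraries of the groups did not overlap, and DESeq2 called all of them.

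The counts of list members below stand against 5.20% of all genes tested with an unadjusted p below 0.05 in the higher direction and 5.78% in the lower. Of all 16550 genes, 8117 had a higher and 8433 a lower transgenic mean.

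Genes whose level in fat is known to follow the expansion of adipocytes mostly had lower transgenic means. Of the 12 tested, Fgf13 and Npr3 fell, 7 in all had an unadjusted p below 0.05 in the lower direction and 0 in the higher, and the median log2 change was -0.40 against -0.0048 over all genes (-0.60 to -0.33 with 1 library left out at a time). Fgf13 and Npr3 were chosen as members with their values known, and the other members with earlier results of these data known. The counts and the median, which include both genes, are therefore not independent evidence of the direction. Lep, which encodes leptin, was at 849, 762 and 623 CPM in the transgenic libraries, against 1319, 1991 and 1482 CPM in the wild-type libraries. The highest transgenic library was below the lowest wild-type one, but the difference did not pass (log2 change -1.10, SE 0.27, adjusted p = 0.185), and DESeq2 called it (adjusted p = 0.0037). Sfrp5, a secreted Wnt antagonist of adipocytes, was at 81.2, 63.2 and 159 CPM in the transgenic libraries, against 179.6, 254 and 518 CPM in the wild-type libraries (log2 change -1.65, SE 0.37, adjusted p = 0.147). Its wild-type libraries were widely spread. Mest, an imprinted gene tied to fat cell enlargement, averaged 274 ± 148 CPM in transgenic and 643 ± 343 CPM in wild-type tissue and its groups overlapped (log2 change -1.23, adjusted p = 0.37). Cav1, the main protein of the caveolae of the adipocyte surface, averaged 2534 ± 47.7 CPM in transgenic and 3347 ± 68.4 CPM in wild-type tissue (log2 change -0.40, adjusted p = 0.276). DESeq2 called Sfrp5 and Cav1 lower.

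Genes of adipocyte identity lay on both sides. Of 20 tested, 2 had an unadjusted p below 0.05 in the higher and 2 in the lower direction, and the median was -0.045 (-0.12 to 0.0035 with 1 library left out at a time). Pparg, the master transcription factor of adipocytes, was at 244, 213 and 211 CPM in the transgenic libraries, against 302, 398 and 299 CPM in the wild-type libraries (log2 change -0.58, SE 0.12, adjusted p = 0.13). The groups were apart, and DESeq2 called it lower (adjusted p = 0.00178). Pnpla2, which encodes the lipase that starts triglyceride breakdown, averaged 4222 ± 457 CPM in transgenic and 3421 ± 347 CPM in wild-type tissue (log2 change 0.30, adjusted p = 0.423), and Lipe, the hormone-sensitive lipase, averaged 1529.6 ± 184 CPM in transgenic and 1731 ± 20.6 CPM in wild-type tissue (log2 change -0.18, adjusted p = 0.619). Hcar1 and Hcar2, the receptors for lactate and for beta-hydroxybutyrate that restrain lipolysis, were higher in transgenic tissue by DESeq2 but not by edgeR. Hcar1 averaged 242 ± 43.8 CPM in transgenic and 133 ± 59.8 CPM in wild-type tissue (log2 change 0.87, adjusted p = 0.24). Hcar2 averaged 63.6 ± 21.8 CPM in transgenic and 31.9 ± 11.4 CPM in wild-type tissue (log2 change 0.99, adjusted p = 0.194). Angptl4, a secreted inhibitor of lipoprotein lipase, averaged 753 ± 96.1 CPM in transgenic and 517 ± 126 CPM in wild-type tissue (log2 change 0.54, adjusted p = 0.252), and DESeq2 called it higher.

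Genes of fatty acid synthesis had lower transgenic means in 17 of 21 cases, with a large spread between libraries. Among them none was called by edgeR or DESeq2, 2 had an unadjusted p below 0.05 in the lower direction and 0 in the higher, and the median was -0.42 (-0.73 to -0.096 with 1 library left out at a time). Scd2, a stearoyl-CoA desaturase, was at 292, 189 and 357 CPM in the transgenic libraries, against 1004, 833 and 225 CPM in the wild-type libraries (log2 change -1.30, adjusted p = 0.369). Elovl6, an elongase of saturated fatty acids, averaged 142 ± 16.3 CPM in transgenic and 320.4 ± 236 CPM in wild-type tissue (log2 change -1.17, adjusted p = 0.447). Fasn, the fatty acid synthase itself, was at 7836, 8893 and 8048 CPM in the transgenic libraries, against 19399, 14971 and 2088 CPM in the wild-type libraries, and the groups overlapped, with wild-type replicate 3 the lowest of the 6 (log2 change -0.56, adjusted p = 0.755). Of 17 genes of triglyceride synthesis, 3 had an unadjusted p below 0.05 in the higher direction and 3 in the lower, and 11 had higher transgenic means. DESeq2 called 1 of them lower and 0 higher, against 1.01% and 0.672% over all genes. The one called was Lpin1, a phosphatidate phosphatase, with 331 ± 45.4 CPM in transgenic and 535 ± 159 CPM in wild-type tissue (log2 change -0.69, adjusted p = 0.231).

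No gene of fuel oxidation or the respiratory chain was called. Among 21 genes of fatty acid uptake and oxidation, 4 had an unadjusted p below 0.05 in the higher direction and 0 in the lower. Acadl, a mitochondrial acyl-CoA dehydrogenase, averaged 236 ± 7.13 CPM in transgenic and 138 ± 27.9 CPM in wild-type tissue (log2 change 0.77, adjusted p = 0.278). None of 32 nuclear genes of the respiratory chain had an unadjusted p below 0.05 (median 0.081, -0.042 to 0.18 with 1 library left out at a time). The thermogenic genes had 2 of 18 with an unadjusted p below 0.05 in the higher direction and 1 in the lower. Ucp1, the uncoupling protein of brown and beige fat, was at 28, 89.2 and 1.54 CPM in the transgenic libraries, against 92.6, 27.7 and 0.0925 CPM in the wild-type libraries, which spans a wide range within each group (log2 change -0.023, adjusted p = 0.998).

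In insulin signalling, beside Irs2, the related adaptor gene Irs1 averaged 110.3 ± 25.4 CPM in transgenic and 69.9 ± 16.7 CPM in wild-type tissue (log2 change 0.66, adjusted p = 0.357), and the insulin receptor gene Insr averaged 106 ± 11.8 CPM in transgenic and 85 ± 7.44 CPM in wild-type tissue (log2 change 0.32, adjusted p = 0.288). Over the 20 genes tested, 4 had an unadjusted p below 0.05 in the higher direction and 2 in the lower, with a median of 0.18 (0.093 to 0.22 with 1 library left out at a time, the lowest without transgenic replicate 3). Of these only Irs2 was called by DESeq2. Stat5a, a transcription factor downstream of growth hormone, averaged 86.6 ± 11.9 CPM in transgenic and 59.2 ± 5.05 CPM in wild-type tissue (log2 change 0.55, adjusted p = 0.13), and DESeq2 called it.

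**Figure D3:**
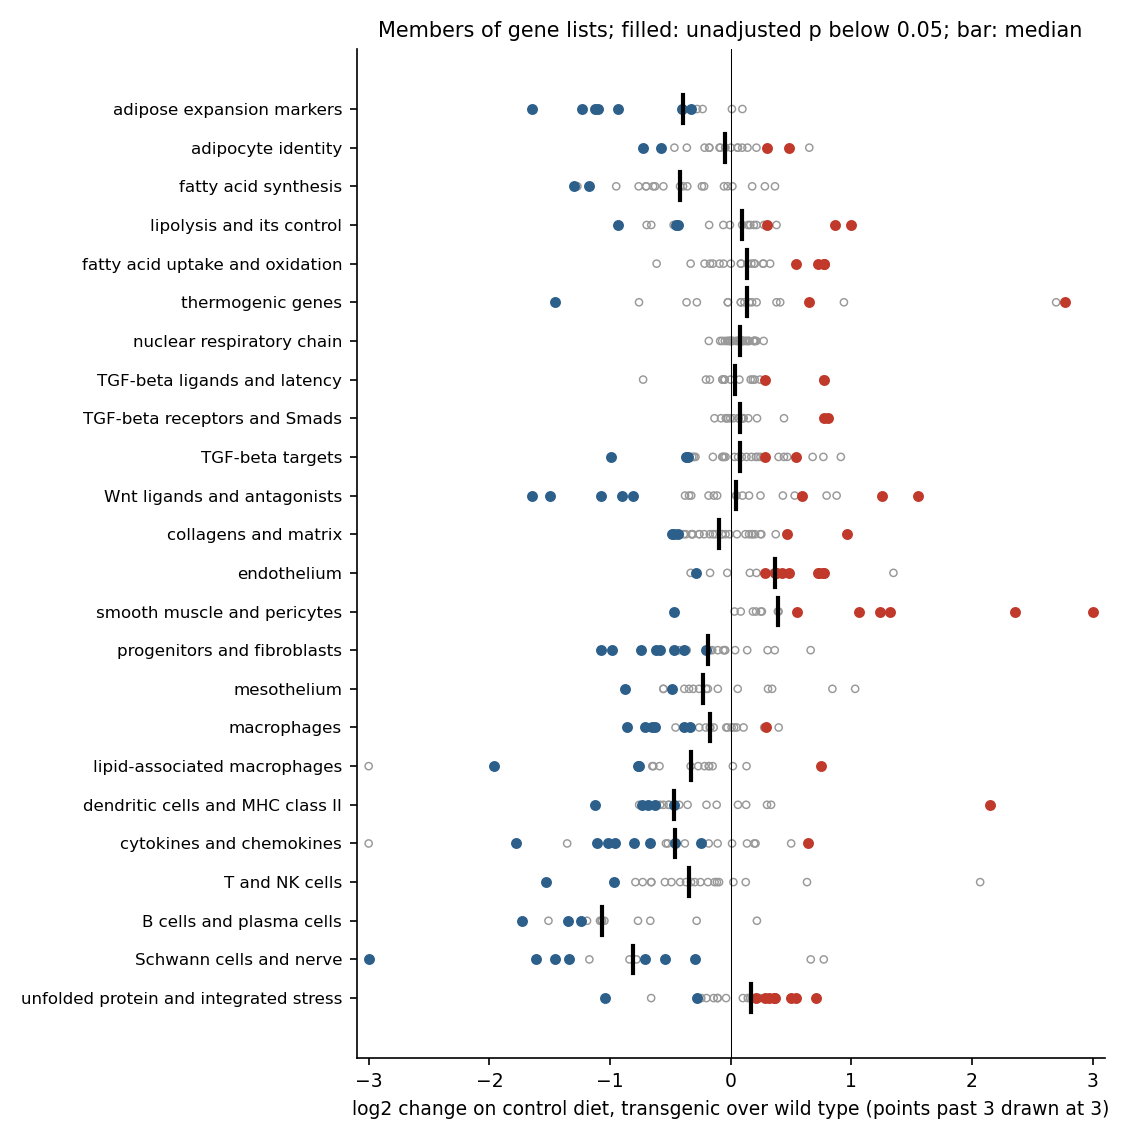
Each row is a gene list and each circle a tested member, placed by its log2 change on control diet, transgenic over wild type. Filled circles have an unadjusted edgeR p below 0.05 (red higher, blue lower in transgenic tissue) and black bars mark medians, which run from -1.07 for B and plasma cells to 0.39 for smooth muscle and pericytes in the lists drawn.

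The TGF-b pathway itself was measured in fat. Tgfb1 was at 51.3, 56.5 and 61.9 CPM in the transgenic libraries, against 47.8, 45.7 and 46.2 CPM in the wild-type libraries, without overlap, and did not pass (log2 change 0.28, SE 0.088, adjusted p = 0.274). Reads of the endogenous gene and of the transgene cannot be told apart. Of 16 ligand and latency genes, 2 had an unadjusted p below 0.05 in the higher direction and 0 in the lower. Besides Tgfb1 this was Lrrc32, whose product holds latent TGF-b on the cell surface, at 56.3, 38.7 and 44.6 CPM in the transgenic libraries, against 27.1, 25.8 and 28.7 CPM in the wild-type libraries (log2 change 0.77, SE 0.14, adjusted p = 0.109; DESeq2 adjusted p = 0.000439). Of 18 receptors and Smads, 2 had an unadjusted p below 0.05 in the higher direction and 0 in the lower. They were Eng, which encodes the endothelial co-receptor endoglin, at 204, 258 and 236 CPM in the transgenic libraries, against 107, 134 and 167 CPM in the wild-type libraries (log2 change 0.77, SE 0.16, adjusted p = 0.125), and Smad6, an inhibitory Smad, with 34.4 ± 8.24 CPM in transgenic and 19.7 ± 4.27 CPM in wild-type tissue (log2 change 0.80, adjusted p = 0.231). DESeq2 called both. The other inhibitory Smad, Smad7, averaged 7.36 ± 1.20 CPM in transgenic and 5.42 ± 1.54 CPM in wild-type tissue (log2 change 0.44, adjusted p = 0.524).

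Of 28 genes that TGF-b is known to induce, 2 had an unadjusted p below 0.05 in the higher direction and 3 in the lower, near the shares over all genes (5.20% and 5.78%), and the median was 0.077 (0.0033 to 0.17 with 1 library left out at a time). Ccn2, connective tissue growth factor, averaged 15.4 ± 11.3 CPM in transgenic and 8.20 ± 2.69 CPM in wild-type tissue (log2 change 0.91, adjusted p = 0.524). Tgfbi averaged 71.4 ± 10.2 CPM in transgenic and 92.3 ± 19.3 CPM in wild-type tissue (log2 change -0.37, adjusted p = 0.418). Cdkn1a, a cyclin-dependent kinase inhibitor, averaged 64.3 ± 28.5 CPM in transgenic and 128 ± 34.9 CPM in wild-type tissue (log2 change -1.0, adjusted p = 0.231), and DESeq2 called it lower.

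Of 30 collagen and matrix genes 2 had an unadjusted p below 0.05 in the higher and 3 in the lower direction (median -0.10, -0.21 to 0.024 with 1 library left out at a time). Eln, elastin, was the one DESeq2 called, at 199, 178 and 94.7 CPM in the transgenic libraries, against 57.1, 83.6 and 102 CPM in the wild-type libraries (log2 change 0.96, adjusted p = 0.199). Col1a1, the main fibrillar collagen gene, was at 428, 565 and 448 CPM in the transgenic libraries, against 474, 479 and 531 CPM in the wild-type libraries (log2 change -0.043, adjusted p = 0.948), and a direction cannot be given for it. Among the enzymes, Adamts5, an aggrecan-cleaving protease, was at 153, 184 and 127 CPM in the transgenic libraries, against 284, 454 and 247 CPM in the wild-type libraries (log2 change -1.09, SE 0.24, adjusted p = 0.147), and DESeq2 called it lower (adjusted p = 0.00178). Timp4, a protease inhibitor of fat and heart, averaged 139 ± 56.2 CPM in transgenic and 289 ± 112 CPM in wild-type tissue (log2 change -1.06, adjusted p = 0.319).

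Among Wnt ligands and antagonists 3 of 23 had an unadjusted p below 0.05 in the higher direction and 5 in the lower. Wnt4 was at 5.16, 8.58 and 4.38 CPM in the transgenic libraries, against 2.04, 2.23 and 1.90 CPM in the wild-type libraries (log2 change 1.55, SE 0.34, adjusted p = 0.133). Wnt11 averaged 3.54 ± 0.388 CPM in transgenic and 6.61 ± 1.73 CPM in wild-type tissue (log2 change -0.90, adjusted p = 0.204). In the related BMP and activin group, Bmp2 averaged 15.7 ± 1.02 CPM in transgenic and 9.84 ± 0.914 CPM in wild-type tissue (log2 change 0.67, adjusted p = 0.159), and Fstl3, a secreted inhibitor of activins, averaged 5.05 ± 2.39 CPM in transgenic and 9.84 ± 1.52 CPM in wild-type tissue (log2 change -0.96, adjusted p = 0.231). DESeq2 called all 4, together with Sfrp5.

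Most genes of the endothelial list (16 of 20) and of the list of smooth muscle and pericytes (14 of 15) had higher transgenic means, against 8117 of 16550 over all genes. In bulk tissue, more cells of a type and more RNA per cell cannot be told apart. Of 20 endothelial genes tested, none was called by edgeR, 10 had an unadjusted p below 0.05 in the higher direction (5.20% over all genes) and 1 in the lower (5.78%), and the median was 0.37 (0.30 to 0.40 with 1 library left out at a time). Eng is one of them and also stands in the receptor list. Vwf, the clotting factor stored in endothelial cells, was at 163, 208 and 169 CPM in the transgenic libraries, against 96.5, 104 and 126 CPM in the wild-type libraries (log2 change 0.73, SE 0.14, adjusted p = 0.119). Plvap, a protein of endothelial fenestrae, averaged 198 ± 35 CPM in transgenic and 117 ± 35.8 CPM in wild-type tissue (log2 change 0.76, adjusted p = 0.211), and Pecam1, an adhesion molecule of all endothelium, averaged 199 ± 17.2 CPM in transgenic and 155 ± 15.7 CPM in wild-type tissue (log2 change 0.36, adjusted p = 0.283). DESeq2 called Vwf, Eng and Plvap. The summed level of the list was 2010.5, 2211 and 2252 CPM in the transgenic libraries, against 1716, 1863 and 1782 CPM in the wild-type libraries.

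Of 15 smooth muscle and pericyte genes, 6 had an unadjusted p below 0.05 in the higher direction and 1 in the lower, with a median of 0.39 (0.20 to 0.50 with 1 library left out at a time). Myh11, the smooth muscle myosin heavy chain, was at 135, 142 and 67.1 CPM in the transgenic libraries, against 55.7, 38.3 and 43.5 CPM in the wild-type libraries (log2 change 1.3, SE 0.27, adjusted p = 0.127). The lowest of its transgenic values was in replicate 3, the library with skeletal muscle transcripts. Des, the intermediate filament protein desmin that striated muscle also makes, was at 70.4, 67.3 and 129.7 CPM in the transgenic libraries, against 35, 40.2 and 38.2 CPM in the wild-type libraries (log2 change 1.24, adjusted p = 0.185). Lmod1, an actin nucleator of smooth muscle, averaged 9.69 ± 2.48 CPM in transgenic and 4.63 ± 1.09 CPM in wild-type tissue (log2 change 1.06, adjusted p = 0.199). Actg2, the enteric smooth muscle actin, was at 23.3, 18.1 and 3.34 CPM in the transgenic libraries, against 2.13, 1.37 and 1.06 CPM in the wild-type libraries (log2 change 3.29, adjusted p = 0.273). The log2 change of Des ran from 0.86 to 1.40 with 1 library left out at a time. DESeq2 called Myh11, Des and Lmod1. The summed level of the list was 1362, 1287 and 1119 CPM in the transgenic libraries, against 1024, 1205 and 1193 CPM in the wild-type libraries, so the groups overlapped.

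Lists of immune cell types had mostly lower transgenic means, whereas the list of interferon-stimulated genes did not. Lower transgenic means were found for 15 of 22 macrophage genes and 15 of 21 genes of cytokines and chemokines, against 8433 of 16550 over all genes. The same held for 18 of 22 genes of T and NK cells, 8 of 10 of neutrophils and mast cells and 8 of 9 of eosinophils and innate lymphoid cells. In these lists 2, 0 and 2 members had an unadjusted p below 0.05 in the lower direction and 0 in the higher. Of 26 interferon-stimulated genes, by contrast, 17 had higher transgenic means, with 4 at an unadjusted p below 0.05 in the higher direction and 0 in the lower. The median of that list was 0.23 (0.022 to 0.30 with 1 library left out at a time). Isg15, a ubiquitin-like protein induced by interferon, averaged 4.40 ± 1.69 CPM in transgenic and 2.26 ± 0.345 CPM in wild-type tissue (log2 change 0.96, adjusted p = 0.357). Among 21 cytokines, chemokines and their receptors, 8 had an unadjusted p below 0.05 in the lower direction and 1 in the higher, with a median of -0.46 (-0.58 to -0.31 with 1 library left out at a time). Ccl2, which draws monocytes into tissue, was at 2.88, 1.10 and 2.03 CPM in the transgenic libraries, against 5.24, 3.15 and 4.58 CPM in the wild-type libraries (log2 change -1.10, SE 0.31, adjusted p = 0.231). Ccl7, a related chemokine, averaged 1.71 ± 0.247 CPM in transgenic and 3.45 ± 0.888 CPM in wild-type tissue (log2 change -1.02, adjusted p = 0.13), and Ccr2, the receptor of both, averaged 10.3 ± 0.711 CPM in transgenic and 16.4 ± 3.68 CPM in wild-type tissue (log2 change -0.67, adjusted p = 0.301). Saa3, an acute-phase apolipoprotein, was at 2.88, 3.66 and 2.21 CPM in the transgenic libraries, against 15.2, 5.38 and 9.30 CPM in the wild-type libraries (log2 change -1.78, adjusted p = 0.253). DESeq2 called Ccl2 and Ccl7.

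Of 22 macrophage genes, 6 had an unadjusted p below 0.05 in the lower direction and 1 in the higher (median -0.17). Lyz2, lysozyme, was at 279.6, 247 and 216 CPM in the transgenic libraries, against 489, 332 and 391 CPM in the wild-type libraries (log2 change -0.71, SE 0.20, adjusted p = 0.228). Retnla, a marker of alternatively activated macrophages, averaged 273 ± 62.2 CPM in transgenic and 422 ± 40.9 CPM in wild-type tissue (log2 change -0.63, adjusted p = 0.182), and Adgre1, which encodes the F4/80 antigen, averaged 17.3 ± 3.79 CPM in transgenic and 27.3 ± 2.55 CPM in wild-type tissue (log2 change -0.66, adjusted p = 0.326). DESeq2 called Lyz2 and Retnla, both lower. Cybb, which these phagocytes express, is described above. Of 17 genes of lipid-associated macrophages, 14 had lower transgenic means, 3 had an unadjusted p below 0.05 in the lower direction and 1 in the higher, and the median was -0.33 (-0.64 to -0.27 with 1 library left out at a time). Ctsl, the lysosomal protease cathepsin L, was at 314, 425 and 323 CPM in the transgenic libraries, against 494, 738 and 575 CPM in the wild-type libraries (log2 change -0.77, SE 0.21, adjusted p = 0.219), without overlap, and DESeq2 called it lower (adjusted p = 0.0258). Mmp12, macrophage elastase, averaged 2.58 ± 1.52 CPM in transgenic and 10.1 ± 3.74 CPM in wild-type tissue (log2 change -1.96, adjusted p = 0.406), whereas Trem2, their lipid-sensing receptor and the one member in the higher direction at that level, averaged 47.5 ± 13.7 CPM in transgenic and 28.3 ± 10.6 CPM in wild-type tissue (log2 change 0.75, adjusted p = 0.436).

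Antigen presentation genes had 5 of 19 members with an unadjusted p below 0.05 in the lower direction and 1 in the higher, which was H2-Eb1, high in transgenic replicate 3 alone (log2 change -0.76 without that library). The median was -0.47 (-0.65 to -0.35 with 1 library left out at a time). Cd74, the invariant chain, was at 111, 132 and 181 CPM in the transgenic libraries, against 211, 259.8 and 235 CPM in the wild-type libraries (log2 change -0.74, SE 0.17, adjusted p = 0.172). H2-DMa, which loads peptide onto class II molecules, averaged 8.89 ± 1.39 CPM in transgenic and 14.3 ± 0.306 CPM in wild-type tissue (log2 change -0.69, adjusted p = 0.109). B and plasma cell genes had a median of -1.07 over 13 genes, which ranged from -1.40 to -0.37 with 1 library left out. Of the 13, 3 had an unadjusted p below 0.05 in the lower direction and 0 in the higher. Lower transgenic means were found for 12 of the 13, against 8433 of 16550 over all genes. The mean log2 CPM of the 13 was 0.19 to 0.86 in the transgenic and 0.88 to 1.94 in the wild-type libraries. The summed level of the 20 listed genes averaged 197 ± 17.5 CPM in transgenic and 199 ± 14.1 CPM in wild-type tissue. Such a sum follows the most abundant members and does not describe the low-level ones. Ighm, Ighd and Igkc held no counts in the 6 libraries. Cd79a, a chain of the B cell receptor complex, was at 0.992, 1.78 and 1.67 CPM in the transgenic libraries, against 5.62, 3.20 and 2.55 CPM in the wild-type libraries (log2 change -1.35, adjusted p = 0.265). Among the eicosanoid enzymes, Alox15, a lipoxygenase of macrophages and eosinophils, averaged 5.21 ± 0.431 CPM in transgenic and 13.6 ± 6.81 CPM in wild-type tissue (log2 change -1.38, adjusted p = 0.187), and Ptges, a prostaglandin E synthase, averaged 77.6 ± 6.85 CPM in transgenic and 150.1 ± 66 CPM in wild-type tissue (log2 change -0.95, adjusted p = 0.22). With 1 library left out at a time, the log2 change ran from -1.62 to -0.90 for Alox15 and from -1.26 to -0.65 for Ptges. DESeq2 called Cd74, H2-DMa, Alox15 and Ptges, all lower.

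**Figure D4:**
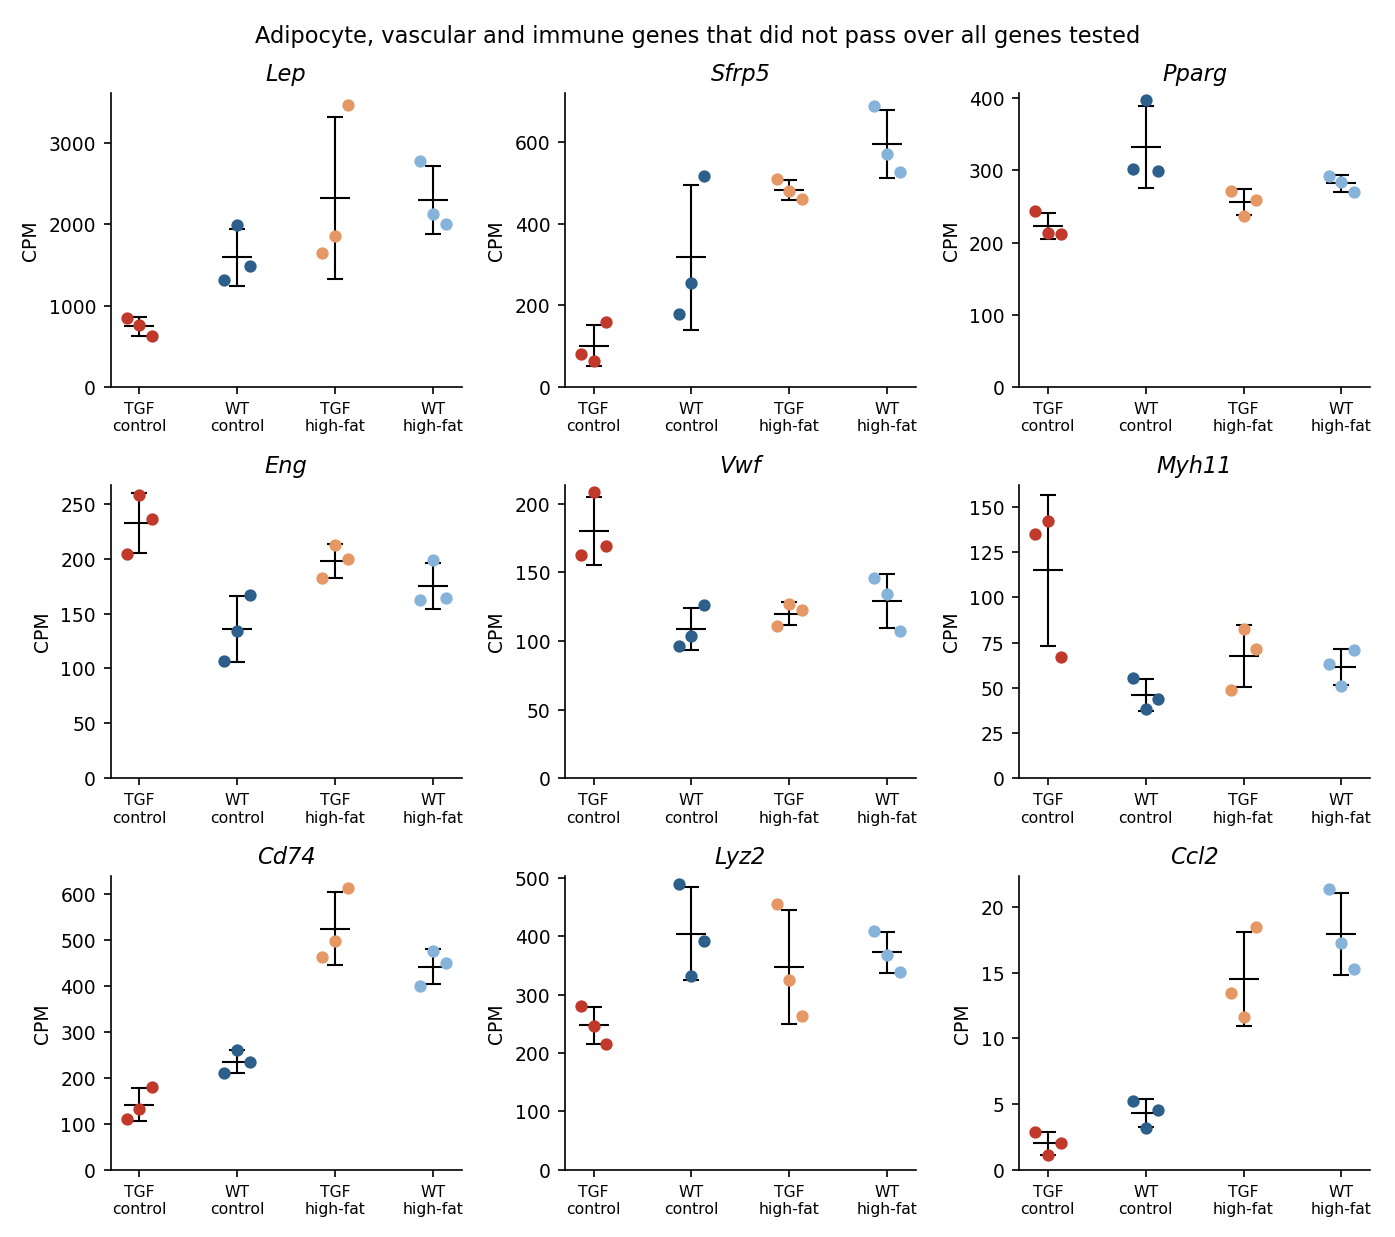
CPM per library of 9 genes that edgeR did not call over all genes tested, with transgenic (TGF) left of wild type (WT) on each diet, and the mean and SD of 3 libraries as black bars. On control diet Lep, Sfrp5, Pparg, Cd74, Lyz2 and Ccl2 have all transgenic points below the wild-type points, and Eng, Vwf and Myh11 have them above.

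Progenitor and fibroblast genes had 8 of 23 members with an unadjusted p below 0.05 in the lower direction and 0 in the higher (median -0.19, -0.28 to -0.091 with 1 library left out at a time). Fmo2, a flavin monooxygenase, was at 71.4, 78.3 and 78.2 CPM in the transgenic libraries, against 147, 128 and 176 CPM in the wild-type libraries (log2 change -0.98, SE 0.19, adjusted p = 0.115). Pi16 averaged 49.5 ± 9.76 CPM in transgenic and 83.1 ± 4.98 CPM in wild-type tissue (log2 change -0.75, adjusted p = 0.214) and Dpp4, a surface peptidase, averaged 62.4 ± 5.47 CPM in transgenic and 93.7 ± 8.99 CPM in wild-type tissue (log2 change -0.59, adjusted p = 0.222). Both mark the multipotent progenitors of the connective tissue around fat lobules. DESeq2 called Sema3c, Fmo2, Pi16 and Dpp4. Mesothelial genes had 2 of 16 members with an unadjusted p below 0.05 in the lower direction. Schwann cell genes had 7 of 12, with a median of -0.81. That median was 0.04 without wild-type replicate 1, and -1.22 to -0.70 without any other 1 of the 6 libraries. S100b, found in Schwann cells and adipocytes, was at 4.07, 2.41 and 2.67 CPM in the transgenic libraries, against 7.51, 6.04 and 11.6 CPM in the wild-type libraries (log2 change -1.46, adjusted p = 0.128). DESeq2 called S100b lower.

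In the unfolded protein and integrated stress list, 8 of 26 genes had an unadjusted p below 0.05 in the higher direction and 2 in the lower, against 5.20% and 5.78% over all genes. The median was 0.17 (0.077 to 0.21 with 1 library left out at a time, the lowest without wild-type replicate 1 and 0.10 without transgenic replicate 1). Pdia4, a disulfide isomerase, was at 109, 109.7 and 101 CPM in the transgenic libraries, against 71.5, 69.1 and 86 CPM in the wild-type libraries (log2 change 0.50, adjusted p = 0.172), and Calr, the calcium-binding chaperone calreticulin, averaged 452 ± 37 CPM in transgenic and 349.8 ± 16.9 CPM in wild-type tissue (log2 change 0.37, adjusted p = 0.257). Both were called by DESeq2. Slc7a11, a cystine transporter of the amino acid stress response, went the other way with 8.24 ± 0.701 CPM in transgenic and 17 ± 3.67 CPM in wild-type tissue (log2 change -1.04, adjusted p = 0.283). Glucocorticoid-responsive genes had 4 of 16 members lower and 2 higher at an unadjusted p below 0.05. Tsc22d3, an anti-inflammatory leucine zipper protein, was at 69.1, 44.7 and 84.1 CPM in the transgenic libraries, against 93.2, 137 and 131 CPM in the wild-type libraries (log2 change -0.87, SE 0.21, adjusted p = 0.18). Mt2, a metallothionein, averaged 30.4 ± 7.80 CPM in transgenic and 56.3 ± 19.7 CPM in wild-type tissue (log2 change -0.89, adjusted p = 0.219), while Angptl4 and Pdk4, a kinase that blocks glucose oxidation, lay higher in transgenic tissue, Pdk4 with 132 ± 31.5 CPM in transgenic and 69 ± 19.8 CPM in wild-type tissue (log2 change 0.94, adjusted p = 0.423). DESeq2 called Tsc22d3 and Mt2 lower. Of 19 complement genes, 14 had lower transgenic means, 4 had an unadjusted p below 0.05 in the lower direction and 1 in the higher, and the median was -0.11 (-0.19 to -0.035 with 1 library left out at a time). Cfp, which encodes properdin, a stabiliser of the alternative pathway, averaged 45.1 ± 2.43 CPM in transgenic and 65.8 ± 6.94 CPM in wild-type tissue (log2 change -0.54, adjusted p = 0.239), without overlap. The one in the higher direction was Masp1, a protease of the lectin pathway, at 9.18, 11.3 and 10.2 CPM in the transgenic libraries, against 5.72, 4.22 and 5.55 CPM in the wild-type libraries (log2 change 0.98, SE 0.17, adjusted p = 0.0919), and DESeq2 called it.

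The same genotype contrast on high-fat diet took its means from the other 6 libraries, so these means share no library with those above. The edgeR p-values of both diets share the spread estimated from all 12 libraries. On high-fat diet edgeR called 0 genes (0%), with 1114 genes at an unadjusted p below 0.05 (6.73%). DESeq2 on 12 libraries called 9 (0.122%) and limma-voom 0. The authors' deposited table for that diet calls 49 genes higher and 24 lower (73 in all). Of the 6 genes called on control diet, 4 had the same sign on high-fat diet and all 6 a smaller change there. The log2 changes on high-fat diet were -0.14 for Npr3, 0.093 for Fgf13, -0.47 for Anxa1, -0.23 for Cybb, 0.074 for Pkn3 and -0.45 for Pcp4l1. Anxa1 stayed apart between the groups, with 475, 445 and 418 CPM in the transgenic libraries, against 694, 629 and 531 CPM in the wild-type libraries. Npr3, by contrast, measured 1197, 1583 and 1589.6 CPM in the transgenic libraries, against 1666, 1588 and 1577 CPM in the wild-type libraries, and Pcp4l1 2.21, 2.11 and 2.39 CPM in the transgenic libraries, against 2.69, 1.5 and 4.97 CPM in the wild-type libraries. The difference between the 2 diets was tested as an interaction. For each of the 6 it had an unadjusted p below 0.05, and none passed over all genes (adjusted p = 0.557 to 0.833). Because the 6 were picked for their control-diet change, a smaller change on high-fat diet is not independent evidence that the diets differ. The interaction test called 0 of the 16550 genes by edgeR (929 at an unadjusted p below 0.05, 5.61%), 0 by limma-voom and 23 by DESeq2 (0.119%).

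Over wider sets, 163 of the 255 tested genes that DESeq2 called on control diet (63.9%) had the same sign on high-fat diet, as did 9617 of all 16550 genes (58.1%). Of the 1816 genes with an unadjusted p below 0.05 on control diet, 163 reached that level on high-fat diet with the same sign and 32 with the opposite sign. Over all 16550 genes, 788 reached that level on high-fat diet with the same sign as on control diet and 326 with the opposite sign. Lists did not all keep their direction. The median of the adipose expansion genes was -0.031 on high-fat diet, that of the endothelial genes 0.03, that of the antigen presentation genes 0.0055 and that of fatty acid synthesis 0.43. Other lists kept theirs. The median was -0.23 on control and -0.68 on high-fat diet for mesothelial genes, and 0.14 and 0.49 for fatty acid uptake and oxidation. It was -0.33 and -0.26 for lipid-associated macrophages, and -0.46 and -0.19 for cytokines and chemokines. The differences between these list medians were not tested. Lep averaged 2325 ± 1001 CPM in transgenic and 2302 ± 416 CPM in wild-type tissue on high-fat diet (log2 change 0.014, adjusted p = 0.997).

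**Figure D5:**
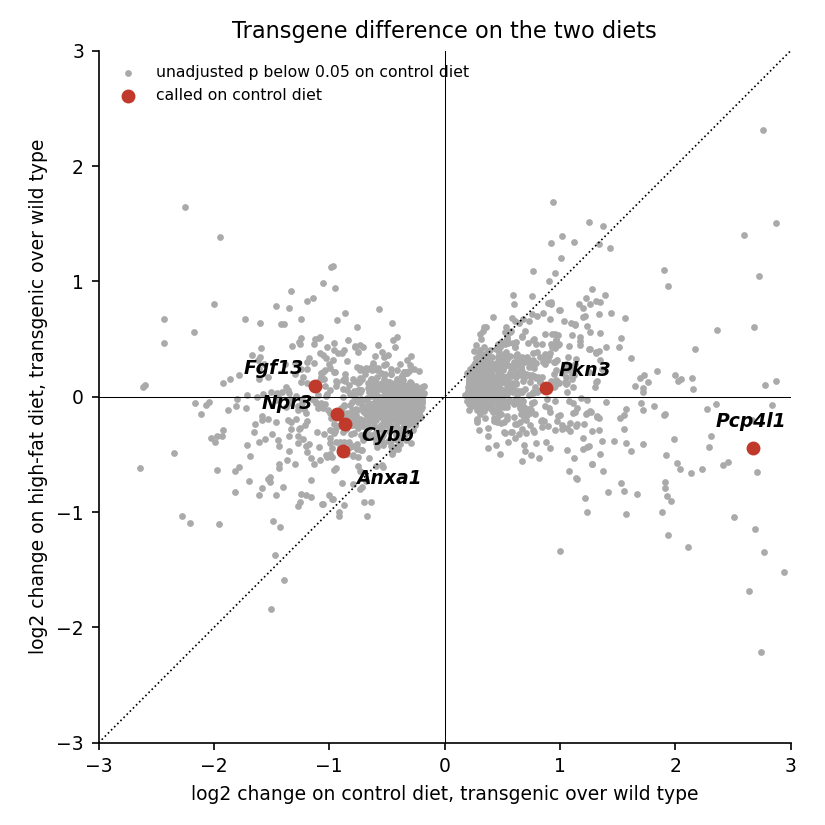
Each grey point is a gene with an unadjusted p below 0.05 on control diet, with its log2 change, transgenic over wild type, on control diet on the x axis and on high-fat diet on the y axis, where both lie within 3. Red points are the 6 genes called on control diet, which all lie nearer to zero on the y axis than on the x axis. The dotted line marks equal changes.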

How the data were processed

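RNA was extracted with a column kit and sequenced by the DNBseq method, per the labels' protocols. The authors deposited whole-number read counts per gene for each library, not normalized, and a DESeq2 table per comparison with log2 fold changes, scores, p-values and normalized signal, of which only the calls of 2 tables are used. The submitters' processing notes name mm10 with the tools DESeq2 1.32.0, HTSeq 2.0 and HISAT2 2.2.0. For the annotation and the strand setting nothing is given in the sources used here, and a gene and an antisense partner cannot be told apart. Exons of the opposite strand covered at most 3.4% of a called gene. Reads not assigned to a gene (16.8% to 21.0% in the 6 libraries) were left out.

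Counts were analysed with edgeR 4.0.16 in R 4.3.3 (filterByExpr, minimum count 10; TMM; group-means model of all 12 libraries, 8 residual degrees of freedom; quasi-likelihood F test; Benjamini-Hochberg adjustment over 16550 genes). The SE of a log2 change is its absolute value over the square root of F. Contrasts were transgenic over wild type on each diet and their difference. DESeq2 1.42.0 and limma 3.58.1 served as alternatives. On the 6 libraries, DESeq2 called the same 151 genes as the authors' table. The edgeR, DESeq2 and limma steps were tested on simulated data. The labels state no batch, and same-numbered libraries did not all deviate together, so no pairing was used. Whether the numbers pair the samples cannot be decided from 3 libraries per group. Replicate libraries differed by more than counting noise, so none was taken as a copy of another.

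Members, the 56 gene lists and the tests were chosen with earlier results of these data known. Named genes were called genes without overlap, the next by p to 5 per direction, a panel, and up to 3 members per list by p. Cav1, Irs1, Tgfbi, Ccr2, Pecam1, Adgre1, Trem2, Actg2, Dpp4, Pdk4, H2-Eb1, H2-T22, H2-T23, Fam83a and Gm42226 were added after their values were seen. Some genes under these rules are not reported here. Symbols were matched to RefSeq on GRCm38.p6.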

Additional observations from a re-analysis of the deposited data

How the results depend on the processing

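The direction of the 6 called genes was kept under all 18 alternatives that give the control-diet contrast, and each gene was called in 9 or 10 of them. On control diet, where edgeR called 6 genes, the count was 256 by DESeq2 on 12 libraries, 151 by DESeq2 on the 6 compared libraries, 269 without a filter beyond 1 count, and 0 by edgeR on the 6 compared libraries (1453 genes at an unadjusted p below 0.05). It was 16 without the 2 libraries with muscle transcripts, 1 without the 2 with epithelial transcripts, and 1 without all 3 control-diet libraries that stand apart, an alternative chosen after seeing the data that leaves 1 transgenic against 2 wild-type libraries, with the lone library assumed to vary like those of the other groups. With 1 library left out it ran from 0 to 58. It was 6 with RLE or upper-quartile factors or a filter of 1 CPM in 3 libraries, and 8 by limma-voom. Same-numbered libraries had correlations of their deviations of -0.045, -0.027 and 0.160. Replicate 1 and 2 did not correlate best with their own number, while replicate 3 did. With 3 libraries per group, these correlations cannot decide whether the replicate numbers pair the samples. With the replicate block, edgeR called 0 genes (1674 at an unadjusted p below 0.05), and the 6 genes had an adjusted p of 0.068. On high-fat diet, where edgeR called 0, the count was 9 by DESeq2 on 12 libraries, 73 by DESeq2 on 6, and 5 without a filter (Clstn3, Cntfr, Pdk4, Slc39a8 and Slpi). For the difference between the diets, where edgeR called 0, it was 23 by DESeq2, 53 without a filter, 1 without the 2 libraries with epithelial transcripts, and 0 to 8 with 1 library left out. The cause of these shifts was not tested.

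Log2 changes of 6 named genes changed sign. Gm42226 was at 0.99 by limma-voom, 0.68 with the replicate block, 6.67 without the 2 libraries with epithelial transcripts, 6.44 without the 3 libraries that stand apart, and -0.68 to 6.09 with 1 library left out. Ucp1 was at 0.60 by limma-voom, 0.44 with the replicate block, 0.082 without the epithelial and 0.55 without the muscle libraries, 1.01 without the 3 that stand apart, and -1.45 to 1.5 with 1 library left out. Col1a1 was at 0.0031 without the muscle libraries and -0.18 to 0.026 with 1 left out. H2-Eb1 was at -0.76 without the muscle libraries and -0.85 without the 3 that stand apart, and -0.76 to 2.67 with 1 left out. H2-T23 was at -0.085 without the muscle libraries and -0.085 to 1.59 with 1 left out. Adipoq was at 0.014 without the 3 that stand apart.

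The SE of the log2 change among the 6 called genes ran from 0.12 for Pkn3 to 0.39 for Pcp4l1, and genes with too few counts for the filter were not tested at this depth.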

Other observations

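No imprinted growth gene passed over all genes by edgeR on control diet. The groups did not overlap for 2 of the 15 genes with transgenic libraries above and 0 with them below, against 6.50% and 7.56% of all genes tested. Igf2, a fetal growth factor, was at 30.2, 32.6 and 34 CPM in the transgenic libraries, against 14.1, 21.3 and 24.6 CPM in the wild-type libraries (log2 change 0.69, adjusted p = 0.301). H19, the non-coding RNA next to it, was at 2.63, 2.46 and 23.6 CPM in the transgenic libraries, against 2.13, 0.762 and 1.39 CPM in the wild-type libraries (log2 change 2.74, adjusted p = 0.357). The high value was in transgenic replicate 3, the library with the highest summed muscle level, without which the log2 change was 0.83. Peg10, a gene derived from a retrotransposon, averaged 19.5 ± 13.7 CPM in transgenic and 45.2 ± 14 CPM in wild-type tissue, with overlapping groups (log2 change -1.20, adjusted p = 0.283). Of the 15 genes of that list, 2 had an unadjusted p below 0.05 in the higher direction and 2 in the lower, against 5.20% and 5.78% of all genes tested. Bcat2, which starts the breakdown of branched-chain amino acids, was at 265, 259.6 and 196 CPM in the transgenic libraries, against 148, 186 and 138 CPM in the wild-type libraries (log2 change 0.61, adjusted p = 0.24), and the groups did not overlap. Cyp2e1, a cytochrome P450 of liver and fat, was at 4091, 5209 and 2273 CPM in the transgenic libraries, against 1679, 2077 and 1643 CPM in the wild-type libraries (log2 change 1.10, adjusted p = 0.29), again without overlap. Adm, the vasodilator peptide adrenomedullin, averaged 9.45 ± 1.53 CPM in transgenic and 5.14 ± 2.04 CPM in wild-type tissue (log2 change 0.87, adjusted p = 0.231).

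Sprr1a, a protein of keratinised epithelium, was at 0.992, 314 and 0.181 CPM in the transgenic libraries, against 0.339, 0.152 and 0.416 CPM in the wild-type libraries, so its level was high in transgenic replicate 2 alone, the library with the highest summed epithelial level. H2-K1 and H2-D1, class I genes of the same complex on chromosome 17 as H2-T22 and H2-T23, were at 463 CPM and 2493 CPM in transgenic replicate 3, within the range of the other 11 libraries (410 to 599 CPM and 2399 to 4066 CPM).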
